A study of Mus musculus with 8 samples.

Results

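The genes described here are 10 membrane transporters that move bile acids, and the organic anions and phospholipid that accompany them, into and out of hepatocytes. They were chosen by gene name as a fixed list, and all 10 have a row among the 16122 genes of the deposited table, where Slc51b stands under that symbol. Male C57BL/6J mice were obtained at 8 weeks of age and were kept for 28 weeks on either a diet rich in fat, fructose and cholesterol or a normal one. Bulk RNA sequencing of liver gave 4 libraries in a group named NASH, for nonalcoholic steatohepatitis, and 4 in a group named WT, numbered 1 to 4. The genotype is wild type throughout and no allele or drug separates the groups, so that WT names a group and no mutant stands against it. That NASH stands for the rich diet and WT for the normal diet is an interpretation, since the labels do not link the names to the diets. Whether every library comes from a separate animal is not stated, and p-values therefore measure the spread among libraries, part of which may be technical.

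Bile acids circulate between gut and liver. Hepatocytes take them from portal blood across the basolateral membrane through the sodium-dependent carrier NTCP (Slc10a1) and the sodium-independent organic anion transporting polypeptides (the Slco genes), and ATP-driven pumps of the canalicular membrane then move them into bile. A further set of basolateral exporters can return bile acids to blood, and in mouse models of cholestasis uptake carriers are known to fall while these exporters rise.

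In NASH livers Slco1a1 fell 12.3-fold and Slc10a1 fell 2.26-fold, while Abcc4, a basolateral exporter, rose 2.52-fold relative to WT livers. The other uptake carriers, the canalicular pumps and Abcc3 did not pass the test, and Slc51b had too few reads to be tested in it. Of the 10 members, 9 passed the filter on low counts, 3 of these passed the test (33.3%), 1 higher and 2 lower, and 6 did not. Over the 12351 genes tested, 18.9% passed, 12.9% higher and 6.00% lower in NASH (edgeR quasi-likelihood test, adjusted p under 0.05). That is 1597 genes higher and 741 lower, a split that became 3071 and 220 when libraries were scaled by their totals. The shares of 18.9%, 12.9% and 6.00% are the background for each count of list or marker genes given below. For 5 of the 10 members, 1 higher and 4 lower in NASH, no library of one group fell within the range of the other, against 26.8% of all genes tested. Both values are of levels scaled as described below. For Slco1b2 and Abcc2, which are among the 4 lower, the groups overlapped when libraries were scaled by their totals. With 9 tested genes such shares rest on a few calls, and no test was made of the list as a whole. The median log2 fold change was −0.45 over the tested members and 0.01 over all genes tested. It was negative for 7 of the 9, or for 5 of the 9 when the libraries were scaled by their totals alone, which moved the median of all genes to 0.37.

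The counts summed to between 25760117 and 28274613 in NASH libraries and between 27204662 and 32684719 in WT libraries. NASH replicates 1 and 4 had totals of 26270597 and 26270596, which differ by 1, while their counts of single genes differ, and how such totals came about is not given in the sources used here. Scaling by the trimmed mean of M-values (TMM) gave factors between 0.967 and 1.40 in NASH libraries and between 0.873 and 0.901 in WT libraries. Levels below are CPM (read counts relative to the TMM-scaled library size), averaged within a group with the SD of its 4 libraries, and adjusted p-values are from the edgeR test over all genes unless another tool is named. Markers of hepatocytes, the cells that hold most of these transporters, were present in every library and none was at 0. In bulk liver, fewer hepatocytes and less transporter RNA per hepatocyte cannot be told apart.

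**Figure D1:**
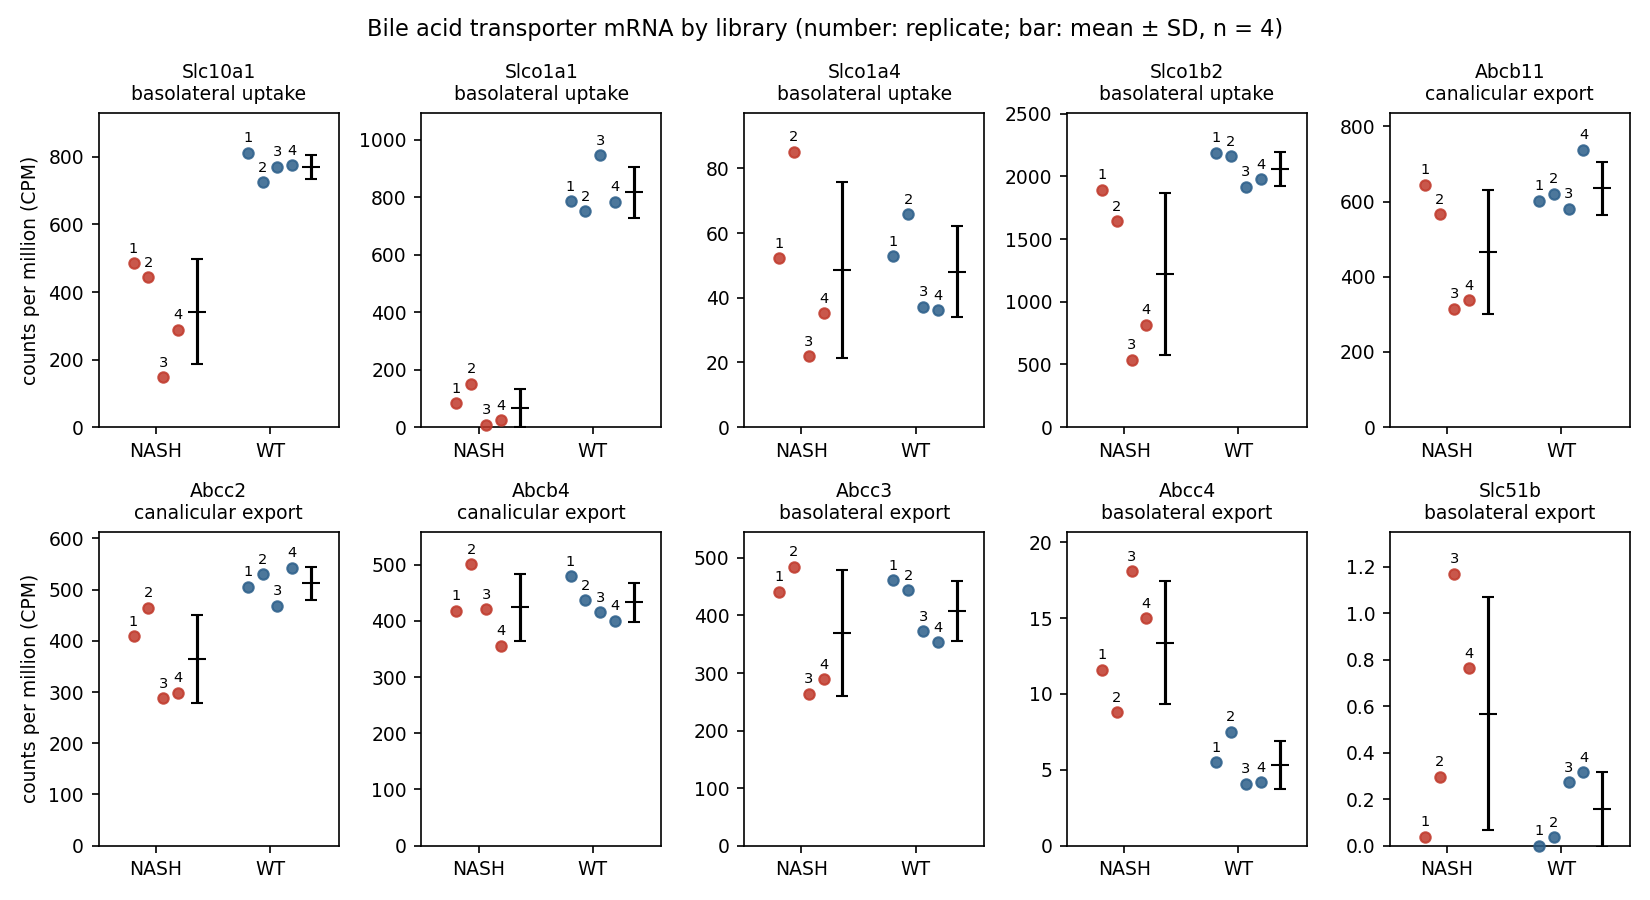
CPM (linear axes starting at 0) of the 10 transporters in each library, NASH in red and WT in blue, with the replicate number above each point and the mean ± SD (n = 4) beside each group. The groups are apart for Slc10a1, Slco1a1, Slco1b2, Abcc2 and Abcc4, and NASH replicate 3 is the lowest of the 8 libraries for 7 genes. Both statements hold for the TMM-scaled levels drawn and not for libraries scaled by their totals.

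The 2 genes that fell and the one that rose are shown with the 300 bases around their annotated start. Slco1a4, the neighbour and close relative of Slco1a1, did not pass the test and is shown with them. Each window runs 5′ to 3′ on the gene's own strand from 250 bases before to 50 after the start in RefSeq, build GRCm38.p6, and 9 of the 10 members have such a window. Capitals mark matches, on either strand, to the 3 motifs searched: the nuclear receptor core AGGTCA, the STAT site TTCNNNGAA and the antioxidant response element core TGACNNNGC.
Slco1a1, chr6:141946913-141947212, minus strand: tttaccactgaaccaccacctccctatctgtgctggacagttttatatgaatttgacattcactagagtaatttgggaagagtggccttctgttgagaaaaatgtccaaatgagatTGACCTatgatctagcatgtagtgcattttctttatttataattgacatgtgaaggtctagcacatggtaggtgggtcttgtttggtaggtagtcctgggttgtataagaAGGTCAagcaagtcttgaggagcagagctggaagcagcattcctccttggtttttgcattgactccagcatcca
Slco1a4, chr6:141856171-141856470, minus strand: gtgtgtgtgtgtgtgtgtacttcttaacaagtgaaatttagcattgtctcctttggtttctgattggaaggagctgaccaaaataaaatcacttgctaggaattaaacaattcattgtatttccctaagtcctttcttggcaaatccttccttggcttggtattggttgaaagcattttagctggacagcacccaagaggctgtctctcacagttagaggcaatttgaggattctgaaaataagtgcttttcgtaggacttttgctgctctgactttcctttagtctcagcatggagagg
Slc10a1, chr12:80968656-80968955, minus strand: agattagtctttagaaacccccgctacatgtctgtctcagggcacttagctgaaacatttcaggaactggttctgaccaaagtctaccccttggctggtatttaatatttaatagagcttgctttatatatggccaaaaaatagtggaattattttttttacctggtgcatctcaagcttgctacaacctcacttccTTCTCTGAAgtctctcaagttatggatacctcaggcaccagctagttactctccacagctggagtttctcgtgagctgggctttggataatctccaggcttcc
Abcc4, chr14:118706170-118706469, minus strand: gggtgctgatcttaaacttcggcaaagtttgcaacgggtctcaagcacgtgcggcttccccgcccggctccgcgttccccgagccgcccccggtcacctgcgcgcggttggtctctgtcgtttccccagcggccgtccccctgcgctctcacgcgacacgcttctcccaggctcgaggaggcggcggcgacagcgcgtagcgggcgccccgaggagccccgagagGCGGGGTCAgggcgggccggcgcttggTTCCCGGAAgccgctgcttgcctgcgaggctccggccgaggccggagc
Positions are those of the first base of a match, with the first transcribed base as 0. The Slco1a1 window held the receptor core at −134 and at −24, and that of Slc10a1 a STAT match at −53. The Abcc4 window held the antioxidant core at −25 and a STAT match at position 2, and no motif was found in that of Slco1a4. Of the windows not printed, those of Slco1b2 (−81), Abcb11 (−56), Abcc2 (−49) and Slc51b (−203) held AGGTCA, Slco1b2 also a STAT match (−206), Abcc2 an antioxidant core (−98) and Slc51b a STAT match (−65), and Abcb4 held none. Over all 32851 promoter windows in the table, AGGTCA occurred in 16.3%, TTCNNNGAA in 8.3% and TGACNNNGC in 12.4%. No matches overlapped each other. A match describes the letters only, and none of these motifs was tested for binding.

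Slco1a1 (ENSMUSG00000041698, chromosome 6, 141907282 to 141946962, minus strand of GRCm38 in GENCODE M21) encodes an organic anion uptake carrier that in mice is known to be male-predominant. It had 83.0, 151, 8.27 and 24.6 CPM in NASH replicates 1 to 4, against 786, 750, 946 and 784 CPM in WT replicates 1 to 4. Every NASH library lay far below every WT library, and the NASH libraries spanned an 18.2-fold range where the WT libraries spanned a 1.26-fold range. The means were 66.6 ± 64.6 CPM in NASH and 817 ± 87.5 CPM in WT, so that NASH held 8.16% of the WT level (log2 fold change −3.62 ± 0.77 SE, adjusted p = 0.0152). The counts behind these levels were 2108, 4070, 326 and 739 in NASH and 18673 to 27609 in WT, so that reads on this gene were not scarce in any library. Dropping any 1 of the 8 libraries kept the call, the log2 fold change being −4.42 (adjusted p = 0.0123) without NASH replicate 2. It was −2.81 (adjusted p = 0.000499) with NASH replicates 3 and 4 both left out and −4.35 (adjusted p = 0.0342) with limma-voom. Over 15 alternatives its adjusted p ranged from 9.99e-05 to 0.0485.

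Slc10a1 (ENSMUSG00000021135, chromosome 12, 80953183 to 80968705, minus strand) encodes NTCP, the main carrier of conjugated bile acids into hepatocytes. NASH replicates 1 to 4 had 486, 444, 147 and 289 CPM, against 812, 725, 771 and 776 CPM in WT replicates 1 to 4. All NASH libraries were below all WT libraries, with replicate 3 the lowest at 19% of the WT mean. Slc10a1 averaged 341 ± 155 CPM in NASH and 771 ± 35.6 CPM in WT (log2 fold change −1.18 ± 0.33 SE, adjusted p = 0.0376). The call was near the threshold: the adjusted p was 0.101 when NASH replicate 4 was dropped and 0.094, 0.074, 0.0826 and 0.0814 when WT replicate 1, 2, 3 or 4 was. The log2 fold change remained negative in each of these, between −1.40 and −0.94 over the 8 libraries left out. With NASH replicates 3 and 4 both left out it was −0.74 (adjusted p = 0.00355), and over 15 alternatives the adjusted p ranged from 0.00204 to 0.101.

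Slco1b2 (ENSMUSG00000030236, chromosome 6, 141629518 to 141686646, plus strand) encodes the liver-specific carrier that takes up unconjugated bile acids. Its levels were 1894.7, 1642.6, 537 and 816 CPM in NASH replicates 1 to 4 and 2188.5, 2162.5, 1917.0 and 1976.4 CPM in WT replicates 1 to 4. In these TMM-scaled levels the groups did not overlap, but NASH replicate 1 came close to the lowest WT library. NASH replicates 3 and 4 held 26.1% and 39.6% of the WT mean. Scaled by library totals, the groups overlapped: NASH replicate 1 (48102 counts of 26270597) lay above WT replicates 3 (55971 of 32684719) and 4 (56501 of 32603193). The difference did not pass the test (1222.7 ± 649 CPM in NASH and 2061.1 ± 135 CPM in WT, log2 fold change −0.75 ± 0.38 SE, adjusted p = 0.18).

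Slco1a4 (ENSMUSG00000030237, chromosome 6, 141805440 to 141856199, minus strand) encodes an uptake carrier of bile acids and other organic anions that is known in mice to be inducible through the xenobiotic receptor PXR. It had 52.2, 85.1, 21.9 and 35.2 CPM in NASH replicates 1 to 4, against 52.9, 65.8, 37.2 and 36.2 CPM in WT replicates 1 to 4. The groups overlapped, and the NASH libraries included both the highest and the lowest of the 8 values. The means were 48.6 ± 27.3 CPM in NASH and 48.0 ± 14.1 CPM in WT (log2 fold change 0.02 ± 0.38 SE, adjusted p = 0.981). The standard error leaves room for a change of moderate size either way, and the sign depended on the libraries included.

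The 3 Slco members lie in one cluster on chromosome 6. From the first base of Slco1b2, Slco1a4 spans 175.9 to 226.7 kb and Slco1a1 spans 277.8 to 317.4 kb, on the strand opposite to Slco1b2. In NASH, Slco1a1 held 8.16% and Slco1a4 101% of the WT mean. Gm6614, a protein-coding gene that lies next to Slco1a1, had 0.315, 0.333, 0.127 and 0 CPM in NASH replicates 1 to 4 and 1.22, 0.875, 0.925 and 0.595 CPM in WT replicates 1 to 4. Those values did not overlap, on 22 counts in NASH and 97 in WT, and the difference did not pass the test (log2 fold change −2.23 ± 0.74 SE, adjusted p = 0.0631), while DESeq2 gave an adjusted p of 0.011 and edgeR without NASH replicate 1 one of 0.0476. Slco1c1, Slco1a6 and Slco1a5 had 12, 3 and 10 counts in all in NASH, and 17, 6 and 24 in WT, below the filter. Of the 50-base stretches in the transcripts of Slco1a1, 1.64% also occur in another gene, 84 of them in Slco1a4. Of those in Slco1a4, 1.61% are shared, 100 of them with Slco1a5, and reads from those stretches could be assigned to either relative.

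**Figure D2:**
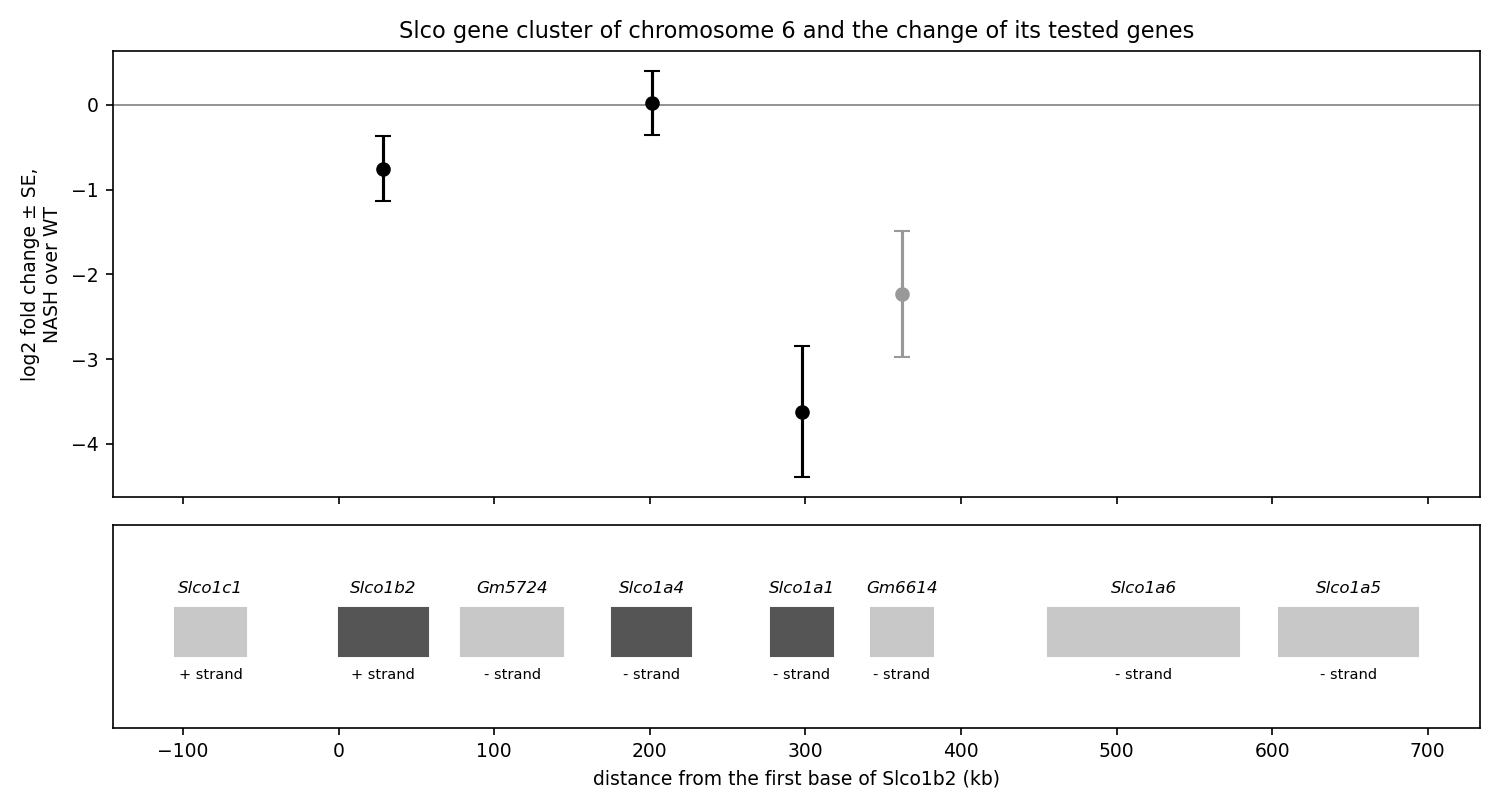
The Slco cluster of chromosome 6, with gene bodies below (transporters described here in dark grey, other genes in light grey, distance from the first base of Slco1b2 in kb) and the log2 fold change of NASH over WT ± SE above each tested gene. Slco1a1 stands at −3.62 and its neighbour Slco1a4 at 0.02.

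Per kilobase of exon, which allows levels to be set side by side between genes, the 4 uptake members together reached 629, 577, 181 and 307 CPM per kb in the NASH libraries, against 971, 921, 925 and 908 CPM per kb in the WT libraries. The sum was 423 ± 215 in NASH and 931 ± 27.3 in WT, and no NASH library reached a WT library. The make-up of this sum differed as well. Slco1a1 held 2.46% ± 1.79 of it in NASH and 16.6% ± 1.89 in WT, with no overlap between libraries. The share of Slco1b2 was 58.3% ± 3.22 in NASH and 44.9% ± 2.37 in WT, while Slc10a1 held 37.4% ± 3.65 in NASH and 37.7% ± 1.3 in WT. Slco1a4 remained a minor part, at 1.82% ± 0.414 in NASH and 0.803% ± 0.232 in WT. A share rises when another member falls, so the share of Slco1b2 is no sign that its own level rose.

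Abcb11 (ENSMUSG00000027048, chromosome 2, 69238282 to 69342616, minus strand) encodes the bile salt export pump, BSEP, which sets the flow of bile acids into the canaliculus. It had 645, 567, 315 and 337 CPM in NASH replicates 1 to 4, against 602, 621, 581 and 738 CPM in WT replicates 1 to 4. NASH replicate 1 was higher than 3 of the WT libraries, while replicates 3 and 4 were at 49.5% and 53% of the WT mean, so the groups overlapped. Abcb11 averaged 466 ± 165 CPM in NASH and 636 ± 70.4 CPM in WT and did not pass the test (log2 fold change −0.45 ± 0.26 SE, adjusted p = 0.239). On the opposite strand, 155 of its exonic bases overlap Gm13613 and Gm13614, and the strand setting of the counting is not given in the sources used here.

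Abcc2 (ENSMUSG00000025194, chromosome 19, 43782192 to 43840740, plus strand) encodes MRP2, the canalicular pump for bilirubin glucuronides, glutathione and sulfated or glucuronidated bile acids. NASH replicates 1 to 4 had 409, 465, 288 and 299 CPM, against 506, 530, 469 and 543 CPM in WT replicates 1 to 4. In these TMM-scaled levels the groups did not overlap, the highest NASH library lying just under the lowest WT library. Scaled by library totals, they overlapped: NASH replicate 2 (12550 counts of 25760117) lay above WT replicate 3 (13688 of 32684719). The means of 365 ± 85.7 CPM in NASH and 512 ± 32.5 CPM in WT differed by a log2 fold change of −0.49 ± 0.19 SE that did not pass the edgeR test (adjusted p = 0.106). DESeq2 gave −0.50 and called it (adjusted p = 0.0327), and over 15 alternatives the adjusted p ranged from 0.0327 to 0.432.

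Abcb4 (ENSMUSG00000042476, chromosome 5, 8893717 to 8959231, plus strand) encodes MDR2, the canalicular floppase that supplies phosphatidylcholine to bile. It had 418, 501, 421 and 356 CPM in NASH replicates 1 to 4 and 480, 437, 415 and 400 CPM in WT replicates 1 to 4. These libraries were interleaved, and Abcb4 had the narrowest range of any member in NASH, 1.41-fold between its highest and lowest libraries. The log2 fold change was −0.03 ± 0.16 SE (adjusted p = 0.905), and it was 0.33 when libraries were scaled by their totals alone. Abcb4 shares 2.83% of its 50-base stretches with other genes, 127 of them with Abcb1a.

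Abcc4 (ENSMUSG00000032849, chromosome 14, 118482692 to 118706219, minus strand) encodes MRP4, which exports bile acids together with glutathione across the basolateral membrane. It had 11.6, 8.81, 18.1 and 15.0 CPM in NASH replicates 1 to 4, against 5.48, 7.51, 4.08 and 4.20 CPM in WT replicates 1 to 4. All NASH libraries were above all WT libraries, and replicates 3 and 4, which were lowest for most other members, were the highest for Abcc4, at 341% and 282% of the WT mean. Abcc4 averaged 13.4 ± 4.05 CPM in NASH and 5.31 ± 1.59 CPM in WT (log2 fold change 1.33 ± 0.27 SE, adjusted p = 0.0139), on 238 to 714 counts a library in NASH and 119 to 206 in WT. It kept its call whichever of the 8 libraries was dropped, with adjusted p between 0.00899 and 0.047. With NASH replicates 3 and 4 both left out the log2 fold change was 0.93 (adjusted p = 0.0466), and over 15 alternatives the adjusted p ranged from 0.000151 to 0.0672.

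Abcc3 (ENSMUSG00000020865, chromosome 11, 94343295 to 94392997, minus strand) encodes MRP3, a basolateral exporter of glucuronides and conjugated bile acids. NASH replicates 1 to 4 had 441, 485, 264 and 289 CPM, against 461, 444, 373 and 354 CPM in WT replicates 1 to 4. The groups overlapped, with NASH replicate 2 the highest and replicate 3, in these TMM-scaled levels, the lowest of all libraries. The log2 fold change was −0.14 ± 0.23 SE (adjusted p = 0.682), from means of 370 ± 110 CPM in NASH and 408 ± 52.5 CPM in WT, and it was 0.18 with library totals alone.

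Slc51b (ENSMUSG00000053862, chromosome 9, 65412714 to 65422955, minus strand) encodes the β subunit of the organic solute transporter, which works only with the α subunit encoded by Slc51a. It had 1, 8, 46 and 23 counts in NASH replicates 1 to 4 and 0, 1, 8 and 9 counts in WT replicates 1 to 4. NASH replicates 3 and 4 were above every other library, while replicates 1 and 2 lay within the WT range, so that the groups overlapped on 78 counts in NASH and 18 in WT. The mean was 0.567 ± 0.5 CPM in NASH and 0.156 ± 0.161 CPM in WT. The gene was below the low-count filter. Without that filter edgeR gave a log2 fold change of 1.81 ± 1.08 SE (adjusted p = 0.281), and DESeq2 gave 1.84 ± 1.14 SE (adjusted p = 0.239), so a change was not detectable at this depth. On the opposite strand, 91 of its exonic bases overlap Rasl12. No row for Slc51a was found by name or synonym in the counts used here, so it was not analysed.

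Ordered by level per kilobase of exon, the members in NASH livers ran from Slco1b2 (248 ± 132 CPM per kb) through Slc10a1 (155 ± 70.5), Abcb11 (90.5 ± 32.1), Abcc3 (64.9 ± 19.3), Abcb4 (45.2 ± 6.36), Abcc2 (42.8 ± 10), Slco1a1 (12.6 ± 12.2), Slco1a4 (7.58 ± 4.26) and Abcc4 (2.09 ± 0.633) to Slc51b (0.799 ± 0.706). In that order Abcc2 did not overlap Slco1a1 and Slco1a4 did not overlap Abcc4 in any library, and the libraries of all other neighbours overlapped. In WT livers the order was Slco1b2 (418 ± 27.3 CPM per kb), Slc10a1 (351 ± 16.2), Slco1a1 (155 ± 16.6), Abcb11 (124 ± 13.7), Abcc3 (71.6 ± 9.22), Abcc2 (60 ± 3.81), Abcb4 (46.2 ± 3.71), Slco1a4 (7.49 ± 2.19), Abcc4 (0.832 ± 0.25) and Slc51b (0.22 ± 0.227). Here only Slco1a1 with Abcb11 and Abcc3 with Abcc2 overlapped. Slco1a1 therefore stood at rank 7 in NASH and at rank 3 in WT, beside the bile salt export pump in WT and next to the minor carrier Slco1a4 in NASH. Abcc4 remained a low-level transcript in both groups, far below Abcc3, the other MRP of the basolateral membrane.

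**Figure D3:**
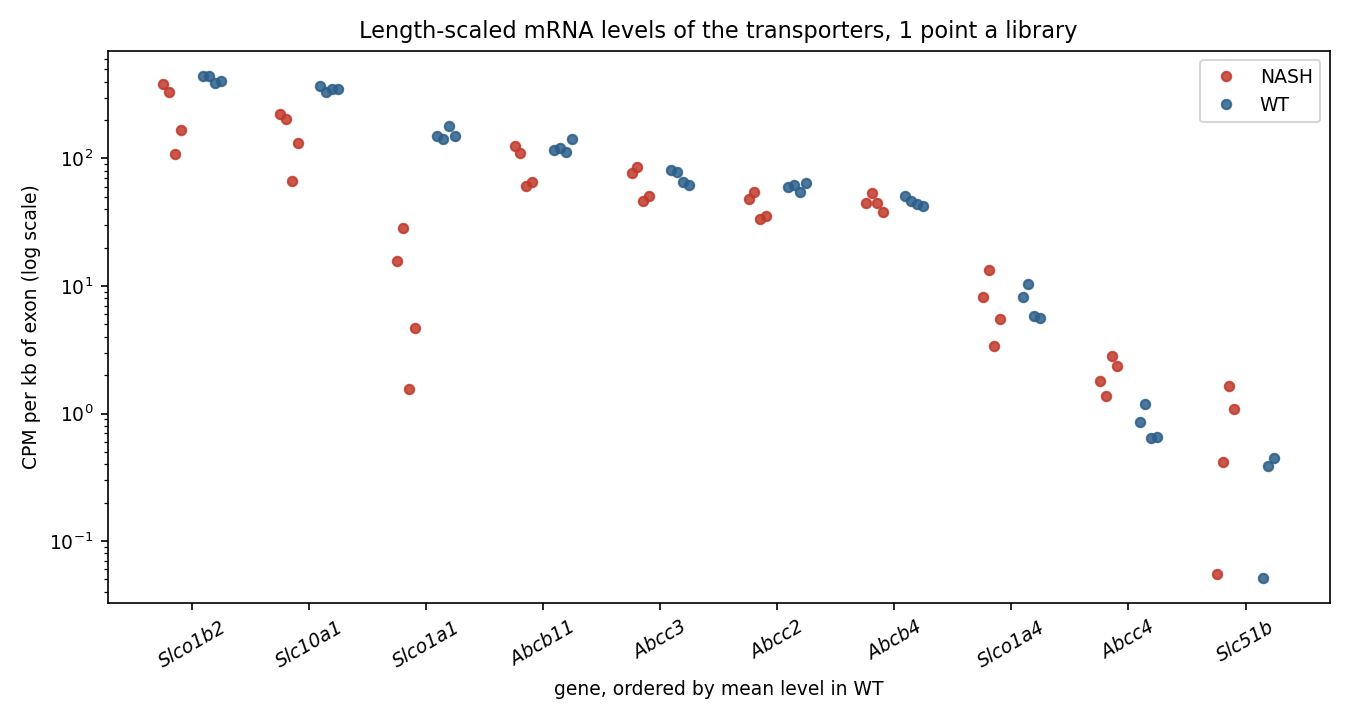
CPM per kilobase of exon on a log axis for the 10 transporters, ordered by their mean in WT, with 1 point a library, NASH in red left of WT in blue. A library with no Slc51b count (WT replicate 1) cannot be drawn, and Slco1a1 in NASH lies between 1.57 and 28.6, below its WT range of 142 to 179.

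The NASH libraries differed among themselves in a way that most members shared. The median over the 9 tested members was 96.4%, 90.8%, 49.5% and 58.5% of the WT mean in NASH replicates 1 to 4, and 105%, 103%, 91.6% and 95.9% in WT replicates 1 to 4. In TMM-scaled levels, NASH replicate 3 was the lowest of the 8 libraries for 7 of the 10 members and the highest for 2, Abcc4 and Slc51b. Scaled by library totals, it lay above NASH replicate 4 for Abcb11, Abcc2 and Abcc3. The counts of these 3 genes were 12403, 11370 and 10399 in replicate 3 (total 28274613) and 10139, 9010 and 8708 in replicate 4 (total 26270596). Slco1a1 ran lower than the other members in each NASH library, at 10.2%, 18.4%, 1.01% and 3.01% of its WT mean in replicates 1 to 4. Replicates 1 and 2 kept Abcb11 at 101% and 89.2% of the WT mean, while the same libraries held Slc10a1 at 63.1% and 57.5%.

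**Figure D4:**
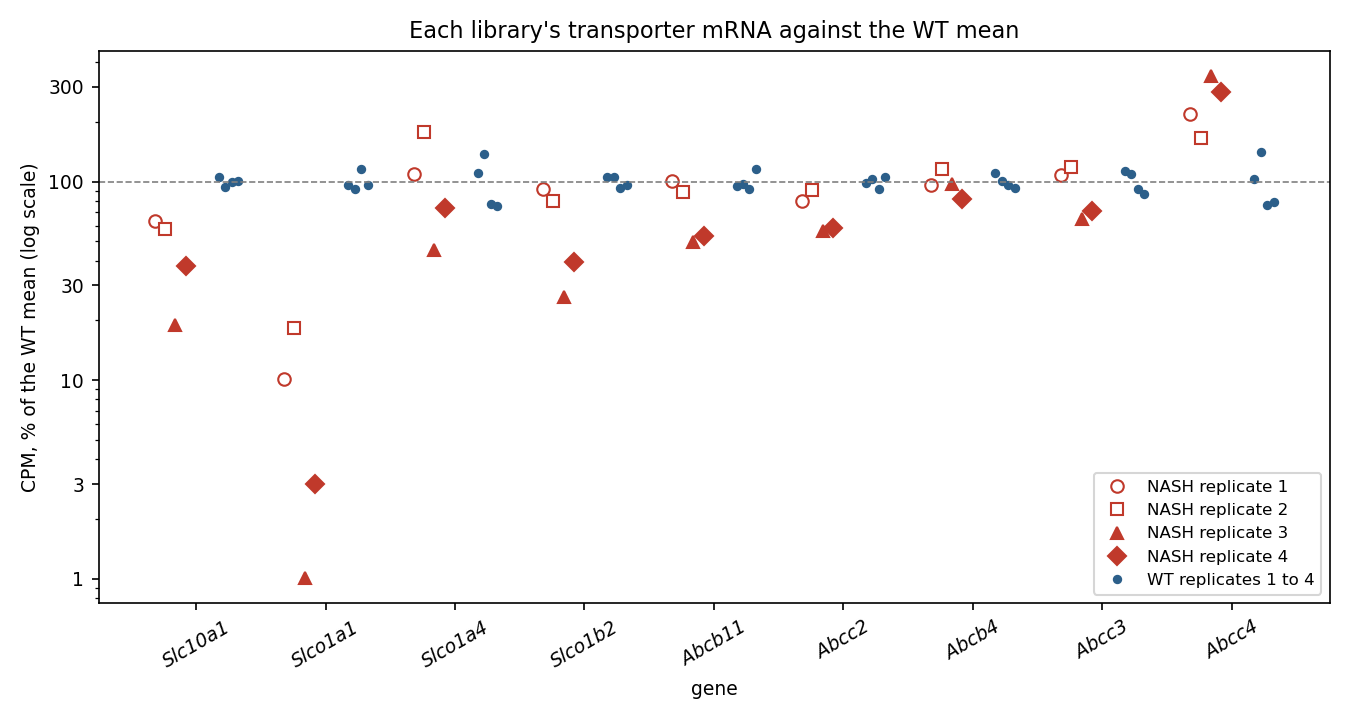
CPM of 9 transporters in each library as a percentage of the WT mean on a log axis, with NASH replicates 1 and 2 as open symbols, NASH replicates 3 and 4 as filled symbols and WT libraries as blue points to their right. NASH replicates 3 and 4 lie below replicates 1 and 2 for Slc10a1, Slco1a1, Slco1a4, Slco1b2, Abcb11, Abcc2 and Abcc3 and above them for Abcc4.

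Marker sums of liver cell types also varied among the NASH libraries, not always in the same order as the transporters, and each sum is over all markers with a row. Of the 16 hepatocyte markers tested, none was higher and 1 lower in NASH. Their log2 fold change was negative for 14 and positive for 2, with a median of −0.64, against −0.45 for the tested transporters. Together they held 130937.8, 123097.0, 57723.2 and 118211.1 CPM in NASH replicates 1 to 4, against 175143.9 to 207745.5 CPM in WT libraries. Replicate 3 was lowest there, and replicate 4 lay near replicates 1 and 2. Alb alone made up most of each sum, at 77282.7, 75862.6, 31693.3 and 79641.5 CPM, so the place of replicate 4 rests largely on that gene. Single markers differed in order: Cyp2e1 had 12230.0, 10180.2, 1976.3 and 1814.2 CPM in NASH replicates 1 to 4, whereas Tf had 378, 338, 693 and 1004.1 CPM. Among 11 macrophage markers 6 were higher, with sums of 441, 473, 1921.2 and 1162.9 CPM in NASH replicates 1 to 4 and of 114 to 376 CPM in WT libraries, and Csf1r was at 0 in at least 1 library. Among 11 stellate cell and fibroblast markers 8 were higher, with sums of 707 to 1955.1 CPM in NASH and of 429 to 563 CPM in WT. Of 13 cholangiocyte markers 10 were tested and 2 were higher, with sums of 139 to 789 CPM in NASH and of 111 to 152 CPM in WT, and Cldn4, Sctr and Cldn7 were at 0 in at least 1 library, Cldn4 and Sctr being below the low-count filter. Endothelial markers (9 tested, 1 higher) summed to 333 to 594 CPM in NASH and 270 to 479 CPM in WT, with Stab2 at 0 in at least 1 library, and lymphocyte and neutrophil markers (10 tested, 1 higher) to 40.3 to 148 CPM in NASH and 18.3 to 37.1 CPM in WT, with Cd3d, Cd8a, Cd79a, Nkg7 and Klrb1c at 0 in at least 1 library. In the lymphocyte and neutrophil list the 1 higher was Ptprc, which made up most of the sum (31.6, 38, 83.7 and 49.8 CPM in NASH replicates 1 to 4). Of the 10 tested there, 7 had a positive log2 fold change and 3 a negative one (Cd4 −0.91, Ms4a1 −0.10 and Klrb1c −0.49). The part that cell make-up plays in the transporter values was not tested. Kidney and intestine also hold several of these transporters, and of 7 genes of those tissues with a row, Slc34a1, Vil1, Lct, Cdx2 and Muc2 were below the low-count filter. Fabp2, a fatty acid binding protein of the intestine, had 161, 139, 73.5 and 54.4 CPM in NASH replicates 1 to 4 and 66.1 to 81.0 CPM in WT libraries (log2 fold change 0.57 ± 0.31 SE, adjusted p = 0.211). Lrp2, the endocytic receptor megalin of kidney tubules, had 0.767 ± 0.452 CPM in NASH and 3.13 ± 1.63 CPM in WT and was lower in NASH (−2.04 ± 0.54 SE, adjusted p = 0.0307).

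Ratios between members within a library do not depend on how libraries are scaled. Taken between levels per kilobase of exon, the log2 ratio of Slc10a1 to Abcb11, uptake against canalicular export, was 0.82, 0.87, 0.13 and 1.00 in NASH replicates 1 to 4 and 1.66, 1.45, 1.64 and 1.30 in WT replicates 1 to 4. Every NASH library was below every WT library, so Slc10a1 was lower relative to Abcb11 in each. The log2 ratio of Abcc4 to Abcc3 was −5.42, −5.95, −4.03 and −4.44 in NASH and −6.56, −6.05, −6.68 and −6.56 in WT, again without overlap, although NASH replicate 2 and WT replicate 2 differed by little. That of Slco1a4 to Slco1a1 was −0.95, −1.11, 1.12 and 0.24 in NASH and −4.18, −3.79, −4.95 and −4.72 in WT. In NASH replicates 3 and 4 the level of Slco1a4 per kilobase was thus above that of Slco1a1, which was the case in no WT library.

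Of 20 other transporters of bile lipids and organic anions tested, 4 were higher, none lower and 16 did not pass, with a median log2 fold change of −0.24. That share of calls is near the 18.9% of all genes tested that passed. The count of 4 was 10 without NASH replicate 1 and 2 without WT replicate 1, 3 or 4. Abcg5, which with Abcg8 forms the canalicular sterol transporter, was at 160 ± 40.4 CPM in NASH and 66.7 ± 15.8 CPM in WT (log2 fold change 1.26 ± 0.22 SE, adjusted p = 0.00855), whereas Abcg8 had 11.3 ± 5.84 CPM in NASH and 7.66 ± 1.65 CPM in WT (adjusted p = 0.237, or 0.0451 with library totals). Abcb1a, a drug efflux pump, had 16.7 ± 6.22 CPM in NASH and 6.49 ± 0.816 CPM in WT (log2 fold change 1.36 ± 0.25 SE, adjusted p = 0.0109). Abcc1, an efflux pump related to Abcc4, had a log2 fold change of 1.70 ± 0.40 SE (adjusted p = 0.0211), and Atp8b1, a canalicular phospholipid flippase, one of 0.40 ± 0.11 SE (adjusted p = 0.0352). The calls of Abcg5 and Abcb1a held with each library left out. That of Abcc1 was lost without NASH replicate 4 or WT replicates 1, 3 or 4 and that of Atp8b1 without NASH replicates 3 or 4 or any WT library, with adjusted p up to 0.0641 and 0.103. Neither passed with NASH replicates 3 and 4 both left out, at 0.98 (adjusted p = 0.0719) for Abcc1 and 0.25 (adjusted p = 0.152) for Atp8b1.

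Of 19 regulators of these transporters tested, 1 was higher, 5 were lower and 13 did not pass. Over all genes 12.9% were higher and 6.00% lower, and the median log2 fold change of the regulators was −0.39. Nr0b2, the repressor SHP that bile acids induce through the receptor FXR, had 3.64 ± 1.51 CPM in NASH and 11.5 ± 2.63 CPM in WT (log2 fold change −1.65 ± 0.34 SE, adjusted p = 0.0144). Foxa3, a hepatocyte transcription factor, had a log2 fold change of −0.82 ± 0.13 SE (adjusted p = 0.00735), and Nr1i3, the xenobiotic receptor CAR, one of −1.11 ± 0.28 SE (adjusted p = 0.0259). Nr5a2 and Ppara, named after their values were seen, were the other 2 that fell (log2 fold changes −0.40 ± 0.11 and −0.93 ± 0.26 SE, adjusted p = 0.0371 and 0.035). S1pr2, a receptor for sphingosine phosphate that conjugated bile acids also activate, was the one that rose (1.15 ± 0.25 SE, adjusted p = 0.0164). Nr1h4, which encodes FXR, had 146 ± 29.1 CPM in NASH and 191 ± 18.0 CPM in WT and did not pass (log2 fold change −0.39 ± 0.17 SE, adjusted p = 0.131). Nor did Nr1i2, which encodes PXR (−0.54 ± 0.18 SE, adjusted p = 0.0641), Hnf4a (−0.59 ± 0.21 SE, adjusted p = 0.0782) or Nfe2l2, which encodes NRF2 (0.36 ± 0.14 SE, adjusted p = 0.11). DESeq2 called Nr1i2 (adjusted p = 0.0336) and Hnf4a (0.00827), and edgeR called Nr1i2 without NASH replicate 1 or 2 (0.0351 and 0.0353), Hnf4a without NASH replicates 3 and 4 (0.0491) and Nfe2l2 with library totals (0.0327). The calls of Nr0b2 and Foxa3 held with each library left out. That of S1pr2 was lost without WT replicate 1 (adjusted p = 0.0544), that of Nr1i3 without NASH replicate 4 or WT replicate 1, 2 or 3 (up to 0.0765), that of Ppara without NASH replicate 4 or any WT library (up to 0.0946) and that of Nr5a2 without any library except NASH replicate 1 (up to 0.0948). With library totals alone, the adjusted p of Foxa3 was 0.0899 and that of Nr5a2 0.786, and without NASH replicates 3 and 4 that of Nr5a2 was 0.0714. The count of 6 was 3 without NASH replicate 4, 2 without WT replicate 1 and 3 without WT replicate 2 or 3.

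Of 16 enzymes of bile acid synthesis and conjugation tested, none was higher, 2 were lower and 14 did not pass. Their median log2 fold change was −0.41, and over all genes 12.9% were higher and 6.00% lower. Cyp7a1, the rate-limiting enzyme of the classic pathway, had 305, 273, 31.4 and 165 CPM in NASH replicates 1 to 4 and 174, 151, 231 and 179 CPM in WT replicates 1 to 4, so that NASH replicates 1 and 2 were the highest and replicate 3 the lowest of all (log2 fold change 0.07 ± 0.54 SE, adjusted p = 0.932). With NASH replicates 3 and 4 both left out it was 0.64 (adjusted p = 0.0266), the lowest adjusted p of its 15 alternatives, which reached 0.992. Cyp7b1, of the alternative pathway, had 80.7 ± 55.3 CPM in NASH and 325 ± 121 CPM in WT (log2 fold change −2.01 ± 0.53 SE, adjusted p = 0.0305). Baat, which joins bile acids to taurine or glycine, had 254 ± 63 CPM in NASH and 417 ± 21.1 CPM in WT (−0.72 ± 0.20 SE, adjusted p = 0.0362). Amacr, a racemase of side-chain shortening, did not pass (−0.50 ± 0.22 SE, adjusted p = 0.144, or 0.0212 without NASH replicate 1). Neither Cyp7b1 nor Baat passed without NASH replicate 4 or without WT replicate 1, 3 or 4, with adjusted p up to 0.0843 and 0.0935, and Baat was also lost without NASH replicate 2 or WT replicate 2 and with library totals (0.053). Cyp7b1 stood at −1.39 (adjusted p = 0.0895) with NASH replicates 3 and 4 both left out. The count of 2 was 4 without NASH replicate 1.

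Among 17 genes that anchor or deliver canalicular proteins, 3 were higher, 1 was lower and 13 did not pass. Their median log2 fold change was −0.05, and over all genes 12.9% were higher and 6.00% lower. Cldn2, a pore-forming claudin of the tight junction, had 112 ± 20.6 CPM in NASH and 55.5 ± 10.2 CPM in WT (log2 fold change 1.01 ± 0.17 SE, adjusted p = 0.00842), and this call held with each library left out. Msn, a membrane-cytoskeleton linker that leukocytes and endothelium also express, had a log2 fold change of 1.61 ± 0.34 SE (adjusted p = 0.0157), and Stxbp2, a vesicle fusion factor, one of 0.49 ± 0.11 SE (adjusted p = 0.0158). Cgn, a protein of the tight junction plaque, was the one that fell (−0.29 ± 0.09 SE, adjusted p = 0.0471) and was named after its values were seen. Msn and Stxbp2 missed the threshold without WT replicate 1 or 3 (adjusted p up to 0.054 and 0.0529), and Cgn without every library except NASH replicate 1 (up to 0.115). Cgn also missed it with limma-voom (0.0585) and with no filter (0.0662), and with library totals alone it had the opposite sign, at 0.08. With NASH replicates 3 and 4 both left out, Msn stood at 0.88 (adjusted p = 0.048), while Stxbp2 and Cgn did not pass (0.068 and 0.117). The count of 4 was 7 if NASH replicate 1 was dropped and 1 if WT replicate 1 or 3 was.

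**Figure D5:**
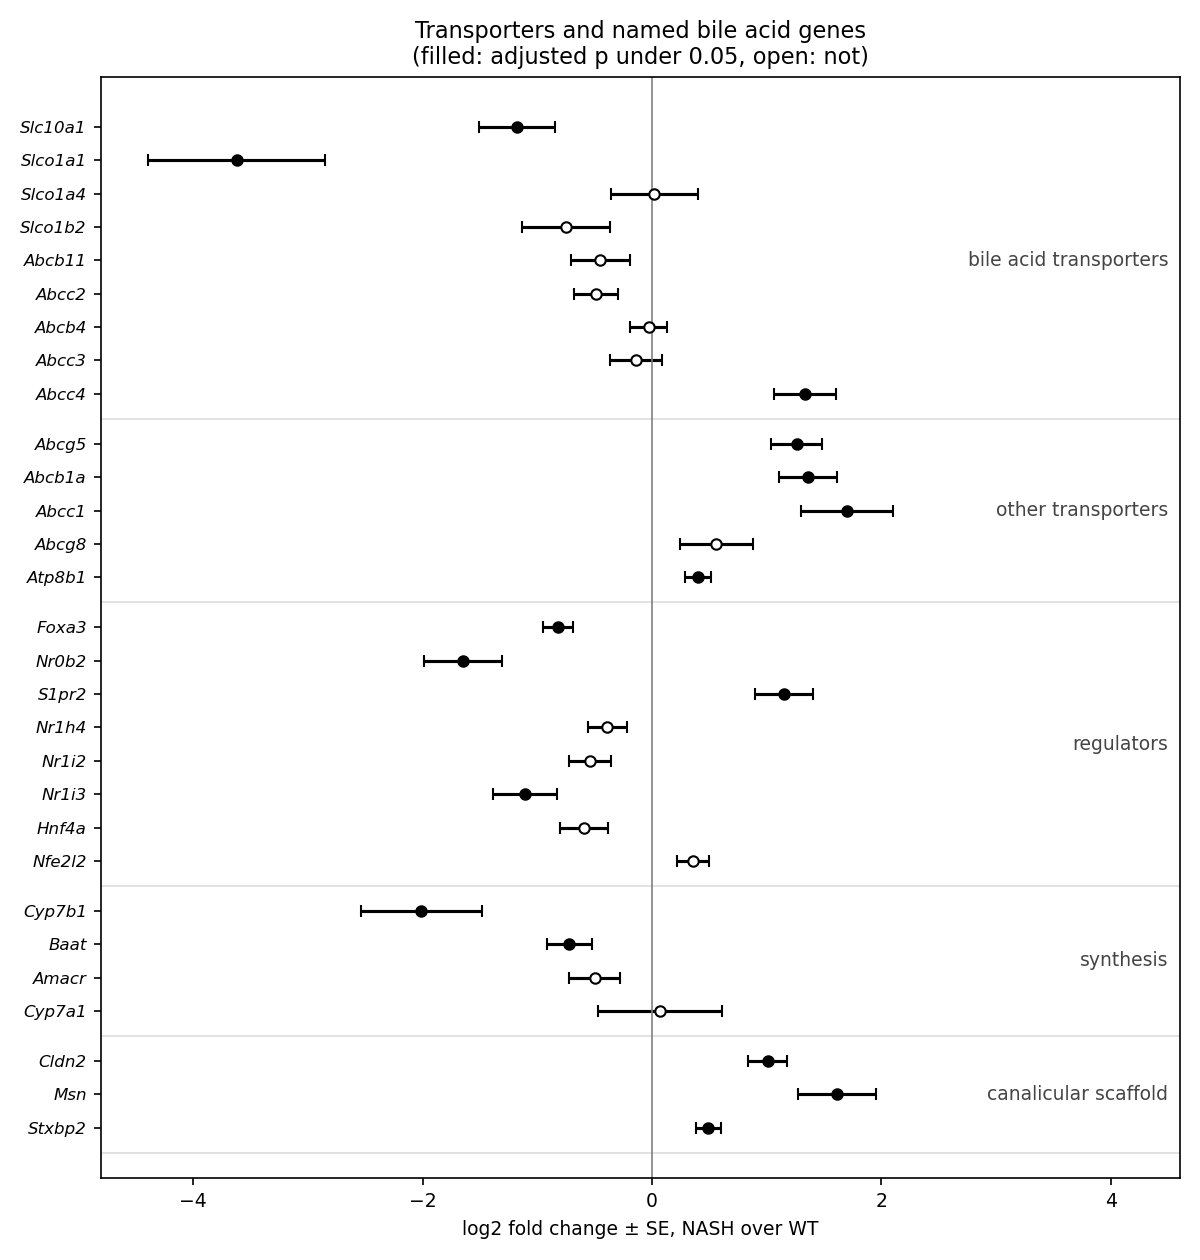
Log2 fold change of NASH over WT ± SE for the 9 tested transporters and for the named genes of the transporter, regulator, synthesis and canalicular scaffold lists, with filled points where the adjusted p was under 0.05. Slco1a1 at −3.62 lies furthest to the left, and Abcc4 at 1.33 lies beside Abcg5 at 1.26 and Abcb1a at 1.36.

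CAR, PXR and NRF2 are known in mice to induce Abcc3, Abcc4 and Slco1a4 along with detoxification genes. Of 16 such genes tested, 5 were higher, 2 were lower and 9 did not pass. Over all genes 12.9% were higher and 6.00% lower. The median log2 fold change of the 16 was 0.06, with 9 positive and 7 negative. Given after their values were seen, the 9 that did not pass ran from −0.83 (Ugt1a1) to 0.47 (Gstm1). They included Gclc (0.09), Gclm (−0.24), Txnrd1 (0.03) and Cyp3a11 (−0.08). Gstm3 (log2 fold change 2.54 ± 0.37 SE, adjusted p = 0.00588) and Gsta1 (2.55 ± 0.50 SE, adjusted p = 0.013), glutathione transferases with close relatives whose reads may be shared, and Srxn1, a sulfiredoxin (1.88 ± 0.40 SE, adjusted p = 0.0155), were higher in NASH. Nqo1 (1.18 ± 0.27 SE, adjusted p = 0.0184) and Hmox1 (1.83 ± 0.50 SE, adjusted p = 0.0336) were the other 2 that rose, and Cyp2b10 (−3.14 ± 0.75 SE, adjusted p = 0.0217) and Cyp1a2 (−2.43 ± 0.69 SE, adjusted p = 0.0381) fell. The last 4 were named after their values were seen. The calls of Gstm3 and Gsta1 held with each library left out, and that of Srxn1 was lost without WT replicate 1 (adjusted p = 0.0528). Without NASH replicate 4 or WT replicate 3 none of the other 4 passed, with adjusted p up to 0.0553 for Nqo1, 0.0925 for Hmox1, 0.0625 for Cyp2b10 and 0.0845 for Cyp1a2. Nqo1 was also lost without WT replicate 4, Cyp2b10 without WT replicate 1, Hmox1 without NASH replicate 3 or any WT library, and Cyp1a2 without any library except NASH replicate 1. Without NASH replicate 1, Cyp2b10 stood at −4.04 and Cyp1a2 at −3.09, and without NASH replicate 3, Srxn1 stood at 1.28. With limma-voom Gsta1 (adjusted p = 0.076), Hmox1 (0.0722) and Cyp1a2 (0.0559) did not pass, and Cyp2b10 stood at −4.28. With no filter on low counts Hmox1 (0.0534) and Cyp1a2 (0.0596) did not pass. With NASH replicates 3 and 4 both left out, Hmox1 stood at 0.56 (adjusted p = 0.205), and Gsta1 at 3.18, Cyp2b10 at −2.36 and Cyp1a2 at −1.62 kept their calls.

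Slco1a1 is one of the male-predominant genes of mouse liver, whose level depends on the pattern of growth hormone release. Of 20 other male-biased genes tested, none was higher, 8 were lower and 12 did not pass, where 6.00% of all genes were lower. Cyp7b1, also counted above among the synthesis enzymes, is 1 of these 8. All 20 had a negative log2 fold change, with a median of −1.80. For Moxd1, named after its values were seen, the sign rests on WT replicate 4 at 121 CPM. WT replicates 1 to 3 had 0.0421, 0.0729 and 0.24 CPM, against 0.518 ± 0.542 CPM in NASH. Hsd3b5, a steroid dehydrogenase with close relatives, had 1.24 ± 0.528 CPM in NASH and 66.1 ± 25.1 CPM in WT (log2 fold change −5.77 ± 0.42 SE, adjusted p = 0.000827). Cspg5, a proteoglycan, was at 0 in NASH replicates 1, 2 and 4 and at 0.101 CPM in replicate 3, against 0.909 to 2.06 CPM in WT libraries (adjusted p = 0.00747). C8b, a complement component, had 195 ± 53.2 CPM in NASH and 537 ± 123 CPM in WT (log2 fold change −1.46 ± 0.25 SE, adjusted p = 0.00855). Dropping any 1 library left these 3 calls in place. The count of 8 was 13 without NASH replicate 1, and 5, 4, 5 and 5 without NASH replicate 4 and WT replicates 1, 3 and 4. Of 12 female-biased genes tested, 1 was higher and 2 were lower (over all genes 12.9% and 6.00%), with a median log2 fold change of 0.39. They were the steroid hydroxylase Cyp17a1 (2.35 ± 0.52 SE, adjusted p = 0.017) and the thioesterases Acot3 (−1.46 ± 0.41 SE, adjusted p = 0.0371) and Acot4 (−1.07 ± 0.30 SE, adjusted p = 0.0383), none of which passed without WT replicate 1 or 3 (adjusted p up to 0.0533, 0.104 and 0.109). The 2 thioesterases were also lost without NASH replicate 3 or 4 or WT replicate 2 and with no filter (0.0583 and 0.0505), and Acot3 with limma-voom (0.0532). None of the 3 passed with NASH replicates 3 and 4 both left out, at 1.11 for Cyp17a1 (adjusted p = 0.077), −1.05 for Acot3 (0.331) and −0.67 for Acot4 (0.19).

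Across the 8 libraries, which include both groups, the genes whose log2 CPM was most like that of Slco1a1 were Susd4, Lrpprc and Whsc1l1 (Pearson's r = 0.994 each). For Abcc2 they were Idi1 (r = 0.996), Snhg11 (r = 0.990) and Ugt1a5 (r = 0.989), and for Abcc4 Cd274 (r = 0.993), Ptpn18 (r = 0.991) and Gcnt1 (r = 0.988). These values describe likeness over 8 points that share the difference between groups and the spread among NASH libraries.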

How the data were processed

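RNA from the livers of the 4 NASH and 4 WT samples was extracted with Trizol and made into libraries with a stranded total RNA kit, per the labels' protocols. The submitters' processing notes name HISAT2, HTSeq 0.9.1 and the mouse builds mm9 and mm10, with no roles. Strand setting and annotation were not given in the sources used here for the counting. The authors deposited raw counts, as the file headers name them, of reads on 16122 protein-coding genes, and 8 columns of their normalized values were not used. Coordinates are from GENCODE M21 (GRCm38) and promoters from RefSeq.

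Genes kept by edgeR's filterByExpr (12351) were compared, NASH over WT, by the edgeR 4.0.16 quasi-likelihood test (TMM, robust, no covariates, two-sided, R 4.3.3), with Benjamini-Hochberg adjustment over all genes and a threshold of 0.05. The SE of a log2 fold change was its size divided by the root of the F statistic. The common biological coefficient of variation was 29.2%. The script was tested on simulated counts. Alternatives used library totals, DESeq2 1.42.0 size factors, its Wald test, limma-voom (limma 3.58.1), no filter, the replicate number as a block and each library left out. Leaving out NASH replicates 3 and 4 together was chosen after seeing the data.

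Members, lists and tests were chosen with earlier results of these data known. All 10 members are named. Of each other list, the 3 genes of smallest p and the direct partners, key receptors and rate-limiting enzyme are named. Some genes of those lists are not reported here and were left out of the lists' counts.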

Additional observations from a re-analysis of the deposited data

Results flagged for a closer look

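Single libraries stood apart from the other 3 of their group for 5 of 94 gene and group combinations checked by Dixon's test, which flags about 1 group in 20 by chance. None was a transporter. NASH replicate 3 was the highest NASH library for S1pr2, at 22.1 CPM against 10.3 to 12.2 CPM in the others, and for Nfe2l2, at 204 CPM against 139 to 149 CPM. It was the lowest NASH library for Nr1h4, at 103 CPM against 155 to 165 CPM, and the one NASH library with any count of Cspg5, at 0.101 CPM. In WT, replicate 4 was the highest for Gstm3, at 26.7 CPM against 16.6 to 18 CPM.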

How the results depend on the processing

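The number of genes passing (2338) was 618 with the replicate block, 3550 with DESeq2, 1357 without NASH replicates 3 and 4, and 821 to 3742 with 1 library left out. Genes higher (1597) were 3071 with library totals alone, 467 with the block, 829 without NASH replicates 3 and 4, and 636 to 2238 with 1 library left out. Genes lower (741) were 220 with library totals alone, 151 with the block, 1277 with DESeq2, and 185 to 1504 with 1 library left out. Of the transporters, 1 passed with the replicate block (Slco1a1, adjusted p = 0.0485), 0 higher and 1 lower; Slc10a1 and Abcc4 then had adjusted p = 0.0662 and 0.0672. Those lower were 1 to 2 and those passing 2 to 3 with 1 library left out. The 16 passing genes of the transporter, regulator, synthesis and scaffold lists were 5 with the block and 5 to 30 with 1 library left out. Replicate numbers did not pair the libraries: the correlations of same-numbered deviations were 0.0344, −0.139, −0.144 and −0.0157. Signs turned for values near 0. Slco1a4 was −0.11 with the block and with limma-voom, and −0.42 to 0.25 with 1 library left out (−0.02 and −0.42 without NASH replicates 1 and 2, −0.09 and −0.10 without WT replicates 3 and 4). Abcb4 was 0.33 with library totals, −0.14 to 0.03 with 1 library left out (0.03 without NASH replicate 4, 0.02 without WT replicate 1) and 0.08 without NASH replicates 3 and 4. Abcc3 was 0.18 both with library totals and without NASH replicates 3 and 4, and Cgn 0.08 with library totals. Cyp7a1 was −0.21 with the block, −0.23 with limma-voom, and −0.24 to 0.42 with 1 library left out (−0.24, −0.15 and −0.01 without NASH replicate 1, NASH replicate 2 and WT replicate 2). The causes were not tested. Of 690 single-gene values under alternatives, 531 kept direction and side of the threshold, 129 lost the call, 12 gained one and 18 changed sign. Of 32 named genes that passed, 12 did so with each library left out, and 21 lost the call with the block, 10 without NASH replicates 3 and 4, 5 with limma-voom, 5 with no filter, 4 with library totals and 0 with DESeq2. Depth limits Slc51b.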
